A study of Mus musculus with 6 samples.

Results

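Thbs1, the gene of the matrix protein thrombospondin-1, Gm29233, an annotated non-coding transcript on the opposite strand inside the Thbs1 gene, Thbd, the gene of thrombomodulin, and Vwf, the gene of von Willebrand factor, are described here across 6 libraries of Bv2 cells. They are 4 of the 1228 genes of the deposited table, found by symbol, and were chosen by their FPKM in the same 6 libraries, so their levels are given as a description with no test. The libraries came from Bv2, an immortalised mouse microglial line labelled wild type, split into 3 controls and 3 samples deprived of oxygen and glucose and then reperfused (OGD/R). The OGD/R cells had 30 min of nitrogen, 2 h at 1% oxygen in medium lacking glucose and serum, and 24 h back in standard medium. The labels give no agent for the control cells and do not say whether their medium was changed. The protocol also mentions an earlier infection without naming the samples it applies to. If it applied to the OGD/R cells only, infection and OGD/R cannot be told apart. The labels do not say whether replicates are separate cultures, and p-values then reflect only how far these libraries spread, which can be technical spread.

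Thrombospondin-1 is a large secreted glycoprotein that platelets, macrophages and glia release into the matrix around injured tissue. It binds the cell surface receptors CD47 and CD36 and can release active TGF-beta from its latent form. Thrombomodulin is a membrane receptor that binds thrombin and redirects it from clotting towards activation of protein C, an anticoagulant enzyme. Von Willebrand factor is a multimeric protein of endothelial cells and platelets that tethers platelets to damaged vessel walls and carries clotting factor VIII.

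Of the table's genes, 605 were higher on average after OGD/R and 623 lower, and the log2 ratio of group means closest to 0 was 1.03 on the higher side and -0.97 on the lower. The table thus holds genes that already differ about 2-fold on these libraries. FPKM are fragments scaled by gene length and by library size, so levels can be set side by side between genes. From the steps between low FPKM values, 1 library held between 7626000 and 8668000 counted units, and 96.9% to 99.6% of the low values fell on whole units. No source used here says if 1 unit stands for 1 read pair. Intervals and floors built on these units cover counting error only.

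Thbs1 was close to absent in control cells and clearly present in all OGD/R libraries. The control libraries read 0.09, 0.06 and 0.02 FPKM, which correspond to 4, 3 and 1 counted units. The OGD/R libraries read 6.27, 7.37 and 5.91 FPKM, or 306, 379 and 311 units. The lowest OGD/R library lay far above the highest control library, and the second OGD/R library was the highest. Summed over groups, 8 units stood against 996, a rate 116 times higher in OGD/R (95% exact interval 58.8 to 270). The ratio of mean FPKM was 115, and it ran from 86.9 to 163 when single libraries were left out. That wide range comes with a control level of a few units: 1 unit of Thbs1 was worth 0.0190 to 0.0216 FPKM. Within OGD/R the SD was 0.761 FPKM, where counting alone gives 0.358. Among the 584 higher genes with a value above 0 in both groups, Thbs1 ranked 1st by ratio. By mean FPKM it moved from rank 1159 of 1228 in control to rank 337 in OGD/R.

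Gm29233 was listed at 0 in all 3 control libraries and was present in all 3 OGD/R libraries. Its OGD/R values were 9.31, 13.45 and 8.21 FPKM, a mean of 10.3 ± 2.76 (SD, n = 3). Because the annotated exons add up to only 281 nt, these values rest on 21, 32 and 20 units. Exact counting intervals of the single libraries were 5.76 to 14.2, 9.20 to 19.0 and 5.02 to 12.7 FPKM. These intervals overlap, so the order of the 3 OGD/R libraries was not detectable at this depth. With 0 units in control, a floor of 3 units over the whole group corresponds to 0.454 FPKM, and the OGD/R mean was 22.8 times that floor. This figure leaves out the counting error of the 73 OGD/R units, so it is not a lower limit. Of the 21 genes listed at 0 in every control library, Gm29233 had the highest OGD/R mean. The next was Gm44357 at 3.13 FPKM.

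Thbd was low in control cells and several times higher in OGD/R. The control libraries held 0.77, 1.14 and 0.67 FPKM from 22, 35 and 19 units. The OGD/R libraries held 5.79, 6.28 and 6.85 FPKM from 173, 198 and 221 units. The groups did not overlap, and the 3rd OGD/R library, lowest of its group for Thbs1, was the highest for Thbd. The counting intervals of the 3 OGD/R libraries overlap for Thbd, and those of replicates 1 and 3 overlap for Thbs1, so this order is uncertain. The rate of counted units was 7.28 times higher in OGD/R (95% exact interval 5.73 to 9.37). The SDs of 0.248 FPKM in control and 0.531 in OGD/R compare with 0.172 and 0.449 from counting alone. Thbd ranked 52nd of the 584 higher genes by ratio. In OGD/R its mean of 6.31 FPKM was close to the 6.52 of Thbs1, while in control Thbd, at 0.860 FPKM, was above Thbs1, at 0.0567.

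Vwf went the other way. The control libraries held 4.40, 3.22 and 3.36 FPKM, and the first stood above the other two. The OGD/R libraries held 1.74, 1.47 and 1.10 FPKM, all below every control library. They rest on 541, 426 and 412 units in control, the most of the 4 genes there, and on 225, 200 and 153 in OGD/R. The rate of counted units was 2.55 times lower in OGD/R (95% exact interval 2.31 to 2.82). The SDs were 0.645 and 0.321 FPKM, against 0.170 and 0.103 from counting alone, so the libraries of a group spread more than their counts do. By ratio Vwf stood at place 335 of the 600 lower genes with values above 0 in both groups. These are bulk samples, in which fewer cells with a transcript and less transcript per cell cannot be told apart.

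**Figure D1:**
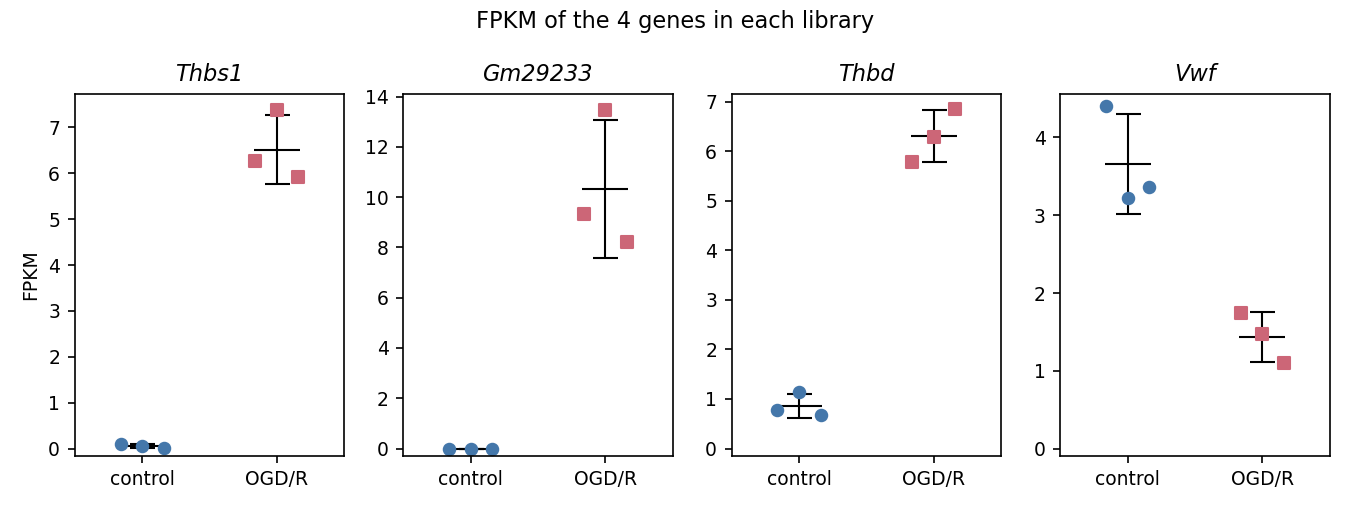
FPKM (vertical axes, linear, 1 scale per gene) of Thbs1, Gm29233, Thbd and Vwf in the 3 control (circles) and 3 OGD/R (squares) libraries, with the group mean (long line) and SD (bars). Thbs1, Gm29233 and Thbd lie higher in every OGD/R library, from 5.91, 8.21 and 5.79 FPKM upward, and Vwf lies lower, at 1.10 to 1.74 FPKM.

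For all 4 genes the 3 OGD/R values lay outside the range of the 3 control values. In the whole table the groups were apart in 94.9% of genes, 48.4% higher and 46.5% lower in OGD/R, and the rule of choice used the same contrast, so this separation does not set the 4 genes apart. Each of the 4 passed the expression minimum of a mean of 1 FPKM over the 6 libraries. Thbs1, Gm29233 and Thbd had control means under that minimum and passed it through OGD/R. The order of the mean levels in control was Vwf, Thbd, Thbs1 and Gm29233, and the ranges of the first 3 did not overlap. Since 1 unit of Gm29233 is worth 0.432 to 0.467 FPKM there, more than any control value of Thbs1, the order of those last genes was not detectable at this depth. In OGD/R the order was Gm29233, Thbs1, Thbd and Vwf. There Thbs1 and Thbd overlapped in range and did not differ beyond their spread, and the lowest Gm29233 library was above the highest Thbs1 library by less than the Gm29233 counting interval.

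**Figure D2:**
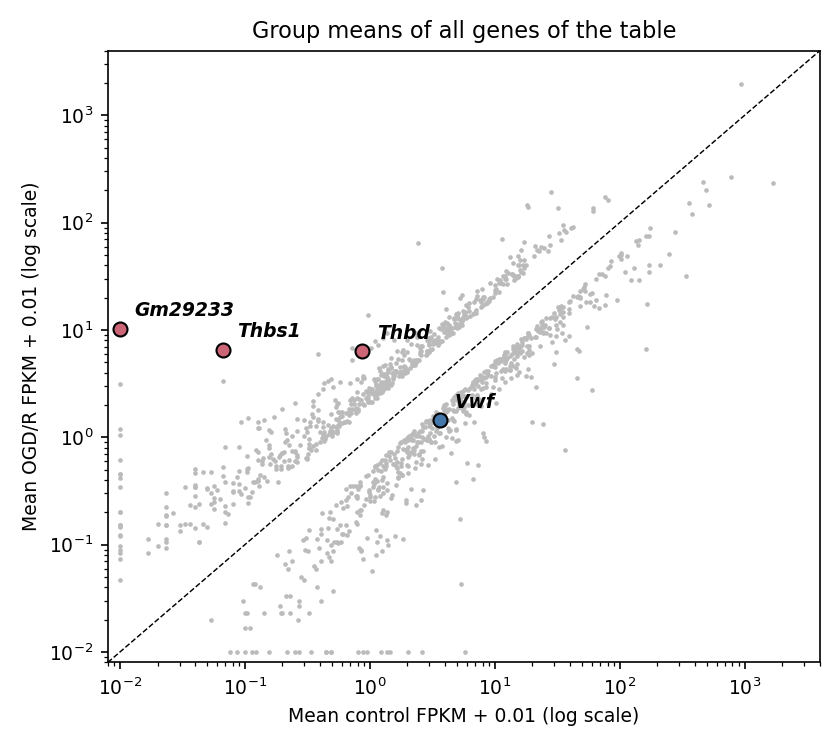
Mean OGD/R FPKM (vertical) against mean control FPKM (horizontal) of the 1228 genes of the table, both plus 0.01 on log scales, with the dashed line marking equal means. Gm29233, at 0 in control, and Thbs1, at 0.0567, lie left of all other genes with an OGD/R mean above 5 FPKM, whose control means begin at 0.373, Thbd lies in the upper band, and Vwf lies among the lower genes.

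Thbs1 and Gm29233 overlap in the genome, on opposite strands. On GRCm38, Thbs1 (ENSMUSG00000040152) lies on the plus strand of chromosome 2 from 118111876 to 118127133. Gm29233 (ENSMUSG00000101859), annotated as a lincRNA, lies on the minus strand from 118123451 to 118124047, wholly inside Thbs1. Its start is 12171 nt downstream of the Thbs1 start. The Gm29233 exon of 110 nt, from 118123451 to 118123560, shares 89 nt with coding exon 19 of the 22-exon Thbs1 transcript. The exon of 171 nt, from 118123877 to 118124047, shares 98 nt with coding exon 20. With the shorter second Thbs1 transcript counted, 208 of the 281 exonic nt of Gm29233, or 74.0%, are also Thbs1 exon, and 73 nt are not. The same 208 nt make up 3.4% of the Thbs1 exon bases.

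No source used here says whether reads were counted by strand, and without strand the reads of the 2 genes cannot be told apart over the shared bases. The density of Thbs1 units per exonic nt, carried over to the 281 nt of Gm29233, comes to 14.2, 17.5 and 14.4 units in the 3 OGD/R libraries, beside the 21, 32 and 20 counted there. Over the 208 shared nt alone it comes to 10.5, 12.98 and 10.7 units. These figures use the length in nt only. Fragments that reach into these bases from outside can also be counted and are not included. If reads were counted without strand and shared reads were kept, Thbs1 reads could give more units than these figures, which set no upper limit. If reads were counted by strand, or shared reads were dropped, Thbs1 reads could give fewer. The figures also take Thbs1 coverage as even along its exons, which was not tested. In the control libraries the same Thbs1 density comes to 0.194, 0.139 and 0.0429 units over the 281 nt, where Gm29233 had 0. All of these are under 1 unit. The ratio of Gm29233 to Thbs1 FPKM was 1.48, 1.82 and 1.39. Both genes read highest in OGD/R replicate 2. The order of the Gm29233 libraries was not detectable, and the Thbs1 counting intervals of OGD/R replicates 1 and 2 overlap, so this shared order is uncertain. How much of the Gm29233 value comes from Thbs1 RNA was not tested.

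**Figure D3:**
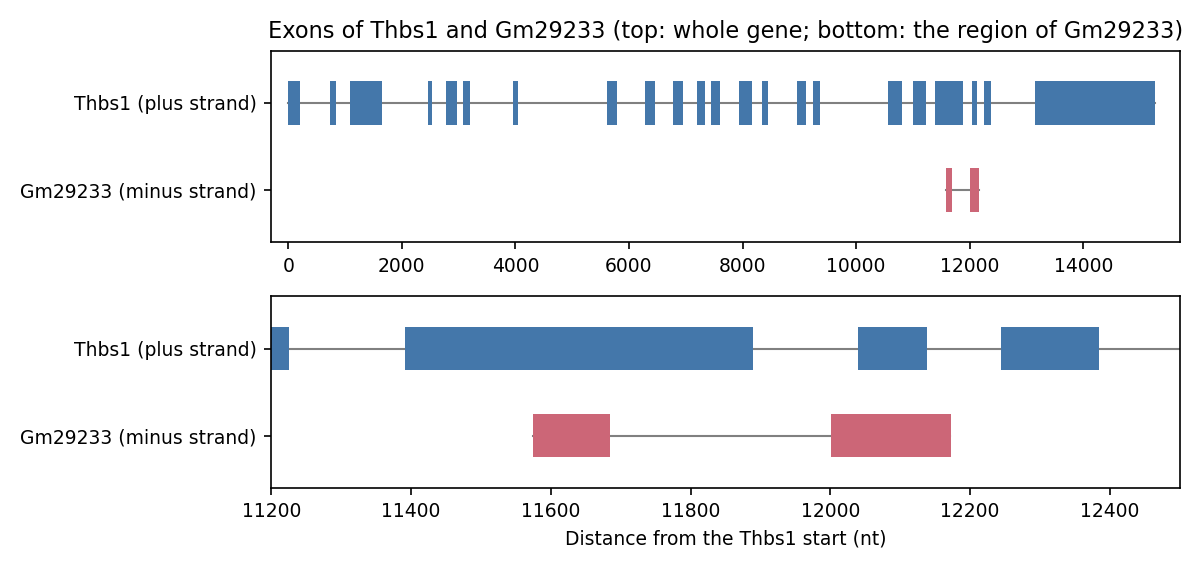
Exons (boxes) of Thbs1 and Gm29233 by distance from the Thbs1 start in nt, with the whole gene above and the region of Gm29233 below; all annotated transcripts of a gene are merged. Both Gm29233 exons overlap Thbs1 exons, over 208 of 281 nt.

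Thbd (ENSMUSG00000074743) is also on chromosome 2, on the minus strand from 148404466 to 148408188, and consists of 1 exon of 3723 nt. Vwf (ENSMUSG00000001930) is on the plus strand of chromosome 6 from 125546774 to 125686679, with 16064 nt in 56 merged exons. Few of their neighbours are in the table. Of 44 annotated genes starting within 1 Mb of Thbs1, 5 were in the table, Gm29233 among them, and all 5 had the higher mean in OGD/R. The mitotic genes Bub1b and Knl1, which encode a spindle checkpoint kinase and a kinetochore scaffold, rose from 17.1 to 45.3 and from 6.78 to 18.3 FPKM (limma adjusted p = 7.9e-05 and 0.00011). Bmf, a pro-apoptotic BH3 gene, and Ccdc9b were below the expression minimum, at ratios of 2.52 and 2.05. Around Thbd the table held 1 of 33 genes, Napb, a vesicle fusion gene, which fell from 1.61 to 0.537 FPKM (limma adjusted p = 0.0054). Around Vwf it held 1 of 77, Spsb2, an adaptor of a ubiquitin ligase, which fell from 8.63 to 4.01 FPKM (limma adjusted p = 0.00033). Outside Gm29233, the largest ratio of OGD/R to control among the Thbs1 neighbours in the table was 2.70, for Knl1, beside 115 for Thbs1.

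The partners of the 4 genes were followed through lists of known roles, counted without the 4 genes themselves. In limma on log2(FPKM + 1), 97.3% of the 852 genes with a mean of at least 1 FPKM differed at an adjusted p under 0.05, 46.6% higher and 50.7% lower in OGD/R. The median log2 fold change was -0.68. Against so high a share, a called gene says only in which direction it went. All genes of the table already differ about 2-fold on these libraries, so the adjusted p-values, here and for the neighbours, do not give a rate of false calls.

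Of 28 receptors and partners of thrombospondins, 4 were in the table and 3 were tested, with 1 higher and 2 lower and a median log2 fold change of -1.03. Cd47, the thrombospondin-1 receptor that also signals to phagocytes through SIRP-alpha, fell while Thbs1 was higher. It held 27.6, 28.7 and 26.8 FPKM in control and 12.7, 13.3 and 13.2 in OGD/R (limma, log2 fold change -1.03 ± 0.09 SE, adjusted p = 0.00012). Calr, which encodes calreticulin, a chaperone that at the cell surface also takes part in thrombospondin-1 signalling, fell to 268 ± 16.8 FPKM from 782 ± 193 in control (SD, n = 3; adjusted p = 0.00052 in limma). Sdc1, a heparan sulfate proteoglycan of the kind that binds thrombospondin-1, rose to 12.8 ± 0.210 FPKM from 5.6 ± 0.430 in control (SD, n = 3; adjusted p = 0.00015 in limma). Mmp9, a matrix protease below the expression minimum, stood at 0.470 and 1.13 FPKM. Cd36 and the other thrombospondin genes are not analysed here.

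Of 45 other proteins with the type 1 repeat of thrombospondin, 4 were in the table and all 4 had the lower mean in OGD/R, opposite to Thbs1. The 2 tested genes both fell, with a median of -1.08. Adamts1, a secreted protease of versican and aggrecan, held 24.4, 24.3 and 25.4 FPKM in control and 11.1, 10.4 and 10.4 in OGD/R (limma adjusted p = 0.00011). Unc5b, a netrin receptor, fell to 1.14 ± 0.254 FPKM from 3.37 ± 0.641 in control (SD, n = 3; adjusted p = 0.00072 in limma). Sspo and Hmcn1 were near 0 throughout, at no more than 0.14 FPKM in any library.

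Coagulation, the protein C pathway and fibrinolysis gave 5 table genes of 53 beside Thbd and Vwf, of which 2 were tested and both rose. Pros1, the gene of protein S, the cofactor of activated protein C and a ligand of phagocytic receptors, rose, and Thbd was higher too. Pros1 held 0.89, 1.13 and 1.09 FPKM in control and 2.89, 2.46 and 2.31 in OGD/R (limma, log2 fold change 0.80 ± 0.12 SE, adjusted p = 0.00069). Proc, the gene of protein C itself, was below the minimum and lower in OGD/R, at 1.08, 1.32 and 0.75 against 0.48, 0.08 and 0.44 FPKM. Entpd1, the ectonucleotidase CD39 that removes platelet-activating ADP, rose to 9.88 ± 0.949 FPKM from 3.00 ± 0.165 in control (SD, n = 3; adjusted p = 9.9e-05 in limma). F8, the gene of factor VIII that von Willebrand factor carries, was low throughout, at 0.28 and 0.10 FPKM on average. F2rl2, a protease-activated receptor, was listed at 0 in all OGD/R libraries and in control replicate 3, with 0.52 FPKM in control replicate 1 and 0.10 in control replicate 2.

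Of 23 genes tied to storage, transport and binding of von Willebrand factor or of the factor VIII it carries, 2 were in the table. Both fell, beside 50.7% of all tested genes that were lower, and Vwf was lower too. Of the 2, Mcfd2 is tied to factor VIII and not to von Willebrand factor itself. Selp, the gene of P-selectin, which endothelial cells store in the same granules as von Willebrand factor, held 2.78, 2.91 and 3.39 FPKM in control. In OGD/R it held 0.90, 1.23 and 1.10 (limma, log2 fold change -0.96 ± 0.12 SE, adjusted p = 0.00038). Its exons share 186 nt, or 4.21%, with the opposite-strand gene Gm16587, so its value is uncertain. The ratio of control to OGD/R means was 2.81 for Selp beside 2.55 for Vwf. Mcfd2, a cargo receptor subunit for factor VIII, fell to 20.4 ± 2.57 FPKM from 45.4 ± 11.8 in control (SD, n = 3; adjusted p = 0.0027 in limma). The 3 relatives of Thbd in the group XIV family of C-type lectin domain proteins, Cd93, Clec14a and Cd248, are not analysed here.

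Transcription factors known from other systems to act on these genes moved both ways, with 2 of 6 tested genes higher and 4 lower, out of 8 in the table and 49 listed. Klf4, which activates Thbd in endothelial cells, was lower where Thbd was higher, at 4.92, 4.85 and 3.74 FPKM in control and 1.06, 1.01 and 0.83 in OGD/R (limma, log2 fold change -1.48 ± 0.13 SE, adjusted p = 0.00013). Smad3, a transducer of TGF-beta signals, rose to 4.43 ± 0.255 FPKM from 1.18 ± 0.148 in control (SD, n = 3; adjusted p = 0.00011 in limma). Klf10, a TGF-beta inducible factor, rose to 8.14 ± 1.01 FPKM from 1.54 ± 0.445 (adjusted p = 0.00014 in limma). The stress-induced factor Atf3 fell to 21.2 ± 3.75 FPKM from 77.4 ± 12.5 (adjusted p = 0.00016 in limma). Jund, of the AP-1 family, and Nfil3, a bZIP repressor, also fell, by log2 fold changes of -1.18 and -1.06 (adjusted p = 0.00017 and 0.00015 in limma). Jund shares 52.6% of its exon bases with the opposite-strand gene Gm11175, so its value is uncertain. Myc, a repressor of Thbs1 in tumour cells and below the minimum here, was at 0.777 ± 0.110 and 0.147 ± 0.0702 FPKM (SD, n = 3). Mlxipl, a glucose-responsive factor also below the minimum, was at 0.03 and 0.277 FPKM.

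**Figure D4:**
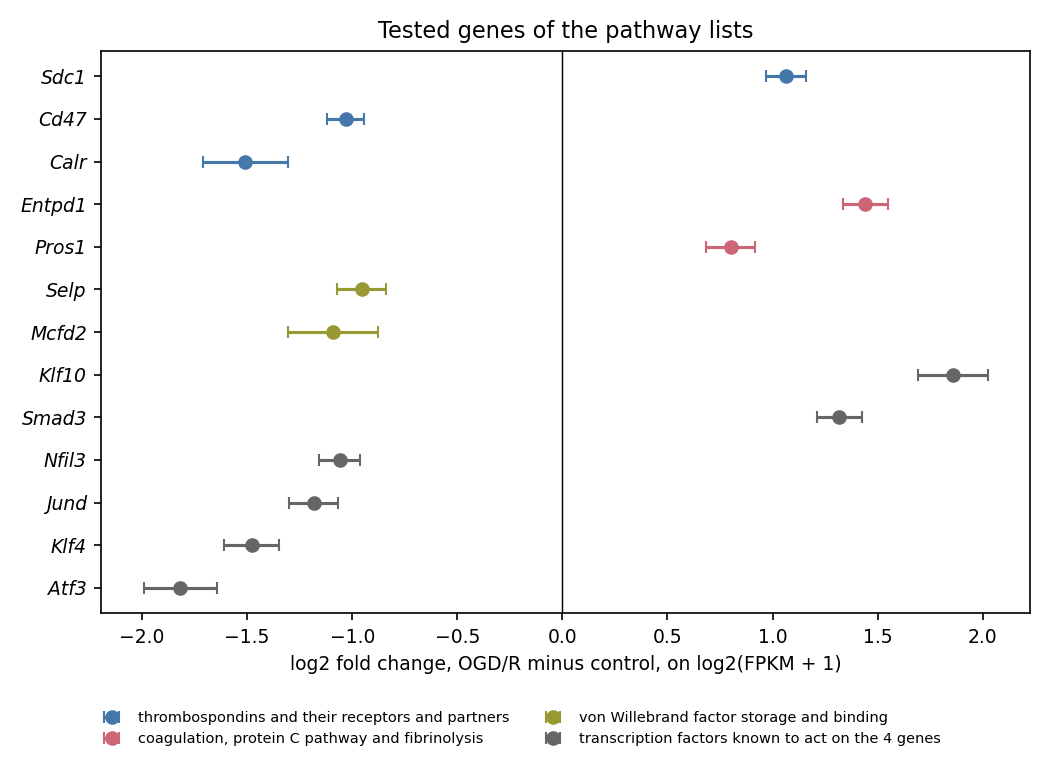
Log2 fold change of OGD/R over control on the log2(FPKM + 1) scale (horizontal axis; points, with limma's SE as bars) for the tested genes of 4 lists, coloured by list. Sdc1, Entpd1, Pros1, Klf10 and Smad3 lie right of 0, and Cd47, Calr, Selp, Mcfd2 and 4 transcription factors lie left of it.

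Thbd and Vwf are best known from endothelial cells, and Vwf and Thbs1 from platelets, so markers of those cells were read beside them. Of 28 other endothelial markers 2 were in the table, Egfl7 and Selp, 1 higher and 1 lower, and their summed level was 3.51 to 4.23 FPKM in control and 2.05 to 3.74 in OGD/R. Egfl7 held 0.73, 0.71 and 0.84 FPKM in control and 1.15, 1.48 and 2.64 in OGD/R (limma adjusted p = 0.024). The call was lost without control replicate 1 and without control replicate 2 (limma adjusted p up to 0.062, range over all settings 0.0030 to 0.062). Without OGD/R replicate 3 its mean was under the expression minimum. Of 13 platelet markers only Selp was in the table, and of 12 fibroblast and mural markers only Cspg4, at no more than 0.09 FPKM in any library. Pecam1, Cdh5 and Pf4, defining markers of endothelium and platelets, are not analysed here. The part of other cell types in the Thbd and Vwf values was not tested. Of 20 microglial and macrophage markers 5 were in the table, all 5 with the higher mean in OGD/R, beside 605 of the table's 1228 genes. All 4 tested genes rose, Entpd1 of the coagulation list among them. Without OGD/R replicate 2 only 2 genes were called, since Cx3cr1 and P2ry6 then had means under the expression minimum, and 2 were called with a minimum of 5 FPKM. The summed level of the 5 was 12.8 to 14.4 FPKM in control and 28.8 to 35.2 in OGD/R, with P2ry12 and Cx3cr1, defining markers of microglia, at 0.530 and 0.373 FPKM on average in control. These 5 genes, like all of the table, differ between the groups, so they are no check of the label of the line, which was not tested.

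The genes most like each of the 4 were found by the root mean square difference of log2(FPKM + 1) over the 6 libraries, each gene centred on its own mean, among 645 tested genes with a symbol that is not a clone or model name. The nearest to Thbs1 was Txnip, at 0.27, followed by Arrdc4, Cytip, Nr4a1 and Cd83 at 0.36 to 0.38. Adding 1 shrinks the change of genes near 0 in control, so nearness here does not mean a like ratio. Txnip went from 28.4 to 192 FPKM, where Thbs1 went from 0.0567 to 6.52. The distances were not computed with a smaller pseudocount. The nearest to Gm29233 was Thbs1, at 0.34, and Txnip, the mitochondrial tRNA mt-Tq, Cd83 and Arrdc4 followed at 0.50 to 0.70. Thbd lay closest to Chst10, a sulfotransferase gene, at 0.093, and then to Nr4a1, Cytip, Klf10 and Arrdc4 at 0.16 to 0.19. Vwf had the closest matches of all, Fzd5 at 0.042 and Dusp4 at 0.057, followed by Atp2a2, Unc5b and Plxnc1 at 0.083 to 0.088. These distances describe the same 6 libraries that chose the genes. The lists of Thbs1 and Thbd share Nr4a1, Cytip and Arrdc4, and none of the 5 genes nearest to Vwf is among the 5 nearest to another of the 4. Txnip, Fzd5 and Atp2a2 share 19.4%, 17.8% and 1.36% of their exon bases with opposite-strand genes of the table, and mt-Tq is shorter than a read, so their values are uncertain.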

How the data were processed

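RNA of 6 Bv2 samples was sequenced as paired reads of 150 nt, per the labels' protocols. The authors deposited FPKM, printed to 2 decimals, on GRCm38 per the submitters' processing notes. Their aligner, counter, annotation and strand setting, and how the table's genes were picked, are not stated in the sources used. The 4 genes and all gene lists were chosen with earlier results of these data known.

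Gene IDs were matched to GENCODE M21 (1227 of 1228). With its merged exon lengths, the library size was sought that turned FPKM values worth less than 15 units into whole units, within rounding plus 0.03 units. At the best other size under 1.4 times as large, 41.6% to 51.7% of values were whole. Ratios of summed units carry 95% exact conditional binomial intervals, and single libraries exact Poisson intervals.

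Genes with a mean of at least 1 FPKM entered limma 3.58.1 (R 4.3.3) as log2(FPKM + 1) (eBayes with a trend, two-sided, Benjamini-Hochberg over 852 genes, threshold 0.05). The log2(FPKM + 1) scale understates changes of low genes. The steps were tested on simulated data. Named genes are the 4, up to 4 called genes of each list by size, table genes within 1 Mb, and the 5 nearest by pattern; genes below the minimum, and the other genes of a list, were named after their values were seen. Python 3.11.15, numpy 2.4.6, pandas 2.3.3, scipy 1.17.1 and matplotlib 3.10.9 did the rest. For 0 of the 4 genes was a RefSeq promoter matched, and no sequence is printed. Alternatives covered pseudocounts, filters, scalings, eBayes settings, a replicate block, voom and each library left out.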

Additional observations from a re-analysis of the deposited data

How the results depend on the processing

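The directions of Thbs1, Gm29233, Thbd and Vwf held in every setting run. The log2 difference of Thbs1, 2.83 with a pseudocount of 1, was 5.42 with 0.1, 6.77 with 0.01 and 6.75 when voom was run on the counted units. That of Gm29233, 3.47, was 6.67, 9.98 and 5.50 in the same settings, and is no bound, since control is at 0. That of Thbd, 1.98, was 2.77, 2.89 and 2.87, and that of Vwf, -0.94, was -1.30, -1.35 and -1.36. A pseudocount of 1 shrinks low values by construction. Scaling by the median ratio moved the median of all tested genes by 0.32 and gave 3.03 for Thbs1, 2.27 for Thbd and -0.63 for Vwf. Scaling by the upper quartile moved that median by 0.13. Both scalings rest on the table's genes alone, of which 97.3% of those tested were called, so they do not measure library size alone. Without single libraries the 4 differences ran from 2.75 to 2.88, 3.28 to 3.61, 1.91 to 2.08 and -1.02 to -0.82, and the ratios of means from 86.9 to 163 for Thbs1, 6.60 to 8.76 for Thbd and 2.28 to 2.85 for Vwf.

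The number of changed genes was 829 (397 higher, 432 lower), and 786 to 831 without single libraries (372 to 401 and 391 to 439). With at least 5 FPKM, where fewer genes are tested, it was 409 (188 and 221). That filter left 1 changed gene of type 1 repeat proteins, 1 of coagulation, 1 of von Willebrand factor storage, 3 transcription factors, 0 endothelial markers, 0 platelet markers and 2 microglial markers. With no filter 1179 genes were changed (590 higher, 589 lower). Coagulation then had 4, thrombospondin partners 4, type 1 repeats 3, transcription factors 8 and microglial markers 5. Median ratio scaling gave 771 changed genes, with more higher than lower (406 and 365). Without single libraries the endothelial count was 1 to 2, the lower value without control replicate 1, control replicate 2 or OGD/R replicate 3, and the microglial count 2 to 4, the lowest without OGD/R replicate 2. The other lists kept their count: 3 to 3 for thrombospondin partners, 2 to 2 for type 1 repeats, coagulation and von Willebrand factor storage, 6 to 6 for transcription factors and 1 to 1 for platelets. With the replicate block 835 genes were changed (395 higher, 440 lower), and every list count was as without it. Same-numbered libraries deviated from their group means with correlations of 0.43, -0.35 and 0.38. Differently numbered libraries ran from -0.63, for control replicate 1 with OGD/R replicate 3, to 0.48, for control replicate 2 with OGD/R replicate 3. Deviations within groups of 3 depend on each other, so this does not tell whether the numbers pair the samples. The values of Thbs1 and Gm29233 in control are limited by depth, at 4 units or fewer per library.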

Other observations

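Thbs1 and Gm29233 were 1 of 71 pairs of table genes that lie on opposite strands and share exon bases, a count made after their values were seen. In 68 of the 71 pairs, or 95.8%, both genes had their mean on the same side of control. Among the 21 pairs in which the shared bases make up at least 50% of the exons of 1 gene, all 21 went the same way. Pairs on opposite strands within 100 kb that share no exon base went the same way in 115 of 160 cases, or 71.9%. Those pairs can lie apart, so they differ from the 71 in distance as well as in shared bases. Some genes, such as Ndrg1 and Slc20a1, are in more than 1 of the 71 pairs, so the pairs are not independent. The 3 pairs with opposite directions were Col4a2 with Col4a1, Dnaic1 with Enho, and Rbbp6 with 4930413G21Rik, which share 22, 15 and 90 nt. Pairs with a wide overlap included Tgm2 with Gm20412, which went from 0.710 to 5.24 and from 0.957 to 13.7 FPKM. Gpr84 and Gm49482 went from 45.9 to 3.53 and from 60.1 to 2.77 FPKM. Whether reads of one strand were counted for genes on the other was not tested, since the table holds no strand of the reads.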
